A study of Solanum lycopersicum with 6 samples.

Results

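A set of 149 tomato leaf genes stood above their starting level after 1 h of heat stress (HS) and below it after 6 h. They are 0.779% of the 19123 tested genes, those for which 2 or more libraries held 50 or more counts, out of 35603 genes in the table. Members were chosen by their measured levels. A level here is log2 of CPM (a gene's count relative to the library total, scaled between libraries by the trimmed mean of M values, TMM) plus 0.5, averaged over both replicates of a time, and a change is a difference of these levels. A member has a change from 0 h of at least 1 at 1 h and of -1 or lower at 6 h. Because these values selected the genes, the changes below are a description and carry no test for the members.

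The libraries are strand-specific RNA sequencing of the fourth leaf of 4-week-old plants of the tomato (Solanum lycopersicum) cultivar M82, grown at 24 °C with 16 h of light. Plants were sampled at 0 h (unheated) and after 1 h and 6 h at 45 °C, with 2 biological replicates at each time, and no treatment or genotype other than HS separates the groups. No plants kept at 24 °C until 1 h or 6 h are among these samples, so duration of heat and time of day cannot be told apart. In bulk leaf RNA, fewer cells of a type and less RNA per cell cannot be told apart either. Counts assigned to genes were between 25147160 and 30738632 per library, and the counting unit is the whole gene span.

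As background, plants respond to heat first through heat shock transcription factors, which switch on genes for chaperones, the proteins that keep other proteins folded. Chaperones in turn restrain those factors, and many early heat transcripts decay again while the stress continues. A transcript level reflects both synthesis and decay, and leaf transcripts also follow a daily rhythm. The gene identifiers of the M82 models are used as given, without names or roles.

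Together the members took the largest share of all counts at 1 h and the smallest at 6 h, an order that the rule favours. They took 0.834% and 0.708% of all counts in the 0 h libraries, 2.35% and 2.40% at 1 h, and 0.331% and 0.343% at 6 h. The median member had 15.1 and 9.23 CPM at 0 h, 45.7 and 48.2 CPM at 1 h, and 3.58 and 3.95 CPM at 6 h. The 6 h libraries lay lowest and the 1 h libraries highest, while the 0 h replicates stood further apart than the replicates of either heated time. The 4 members with the highest mean CPM supplied between 24.2% and 30.6% of the members' summed CPM in each library.

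**Figure D1:**
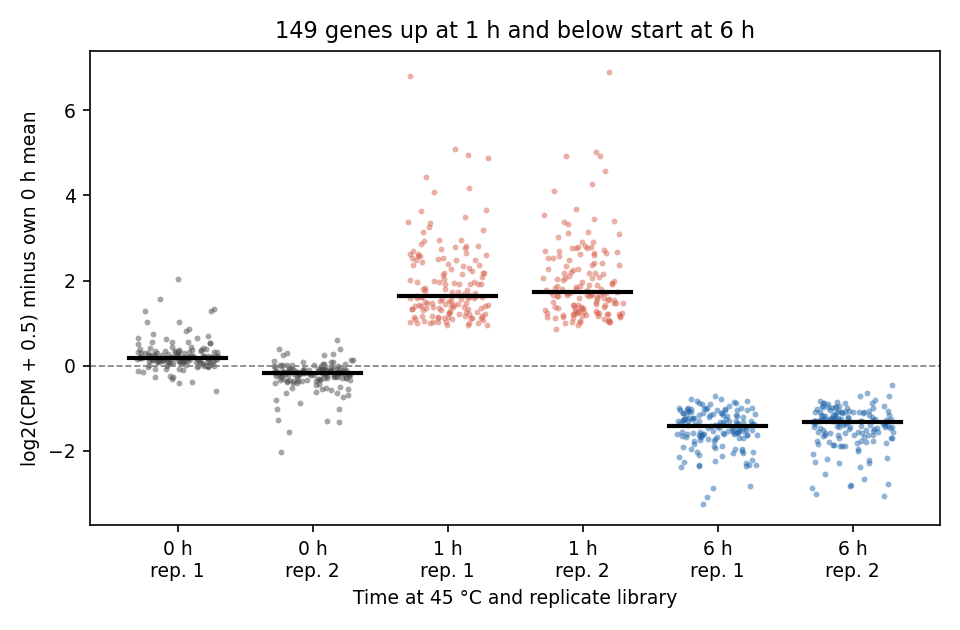
Level of each of the 149 members relative to its own 0 h mean, in log2(CPM + 0.5), in each of the 6 libraries in the order 0 h, 1 h, 6 h, with a bar at the median. The member medians sit at 0.18 and -0.18 in the 0 h libraries, 1.64 and 1.73 at 1 h, and -1.41 and -1.33 at 6 h.

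On the log2(CPM + 0.5) scale the early changes had a wider range than the late ones. At 1 h the changes ran between 1.01 and 6.85, with a median of 1.68 and quartiles of 1.30 and 2.44. At 6 h they ran between -2.98 and -1.0, with a median of -1.38 and quartiles of -1.66 and -1.16. Thus 57 members had a change of 2 or more at 1 h and 17 had one of -2 or lower at 6 h, and 10 members passed both of these limits. The added 0.5 holds back changes of low values. By the ratio of mean CPM, 55 members were at least 4-fold higher at 1 h than at 0 h, and 48 were at least 4-fold lower at 6 h than at 0 h. The median ratios were 3.25 for 1 h over 0 h (quartiles 2.49 and 5.62) and 2.95 for 0 h over 6 h (quartiles 2.41 and 4.71, members at 0 counts set at their lower bound). In 95 members the early change was the larger in size, and in 54 the late one was. In all, 40 members stayed between 1 and 1.5 in size at both times, close to the rule's own limits.

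From 1 h to 6 h the members' levels differed by a median of -3.14 (range -8.14 to -2.05). On the CPM scale the 1 h mean was a median of 11.8 times the 6 h mean, with the 2 members at 0 counts at 6 h set at their lower bound. The lowest such ratio was 4.15 and the highest 281. The rule itself fixes the difference between the heated times at -2 or lower.

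**Figure D2:**
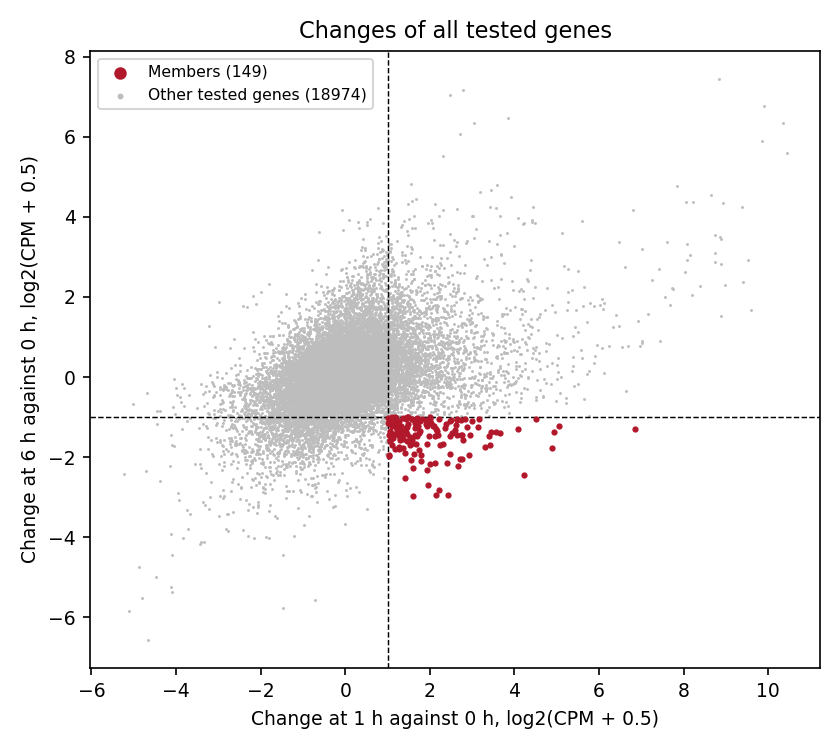
Change at 6 h against change at 1 h, both as differences of log2(CPM + 0.5) from 0 h, for the members and for all 19123 tested genes. The dashed lines are the limits of the rule, which the members lie beyond by construction, and 7 members reach 4 or more on the axis of the 1 h change.

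Genes next to the limits had nearly the same values on either side. Just inside at 1 h were Solyc06g063060.3, with a change of 1.01 (and -1.14 at 6 h), and Solyc02g086830.3, with 1.02 (and -1.03 at 6 h). Just outside were Solyc08g006750.4 at 0.99 and Solyc10g085810.2 at 0.97, although their changes at 6 h were -1.58 and -1.62. At the 6 h limit, Solyc08g076420.3 and Solyc04g082570.3 were inside at -1.0, whereas Solyc01g103650.3 and Solyc07g049460.3 were outside at -0.99. Membership near these limits is therefore a matter of hundredths on the log2 scale.

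Of the 19123 tested genes, 2839 had a change of at least 1 at 1 h and 1770 had one of -1 or lower at 6 h. Members were 5.25% of the 2839 and 8.42% of the 1770. A change of -1 or lower at 6 h was thus less frequent among the 2839 than among all tested genes. Likewise, a change of at least 1 at 1 h was less frequent among the 1770 than among all tested genes. Both changes use the same 0 h libraries, and this difference was not tested. Across all tested genes, edgeR's quasi-likelihood test with Benjamini-Hochberg adjustment at 0.05 called 32.2% higher at 1 h than at 0 h, and 143 of the 149 members. It called 28.0% of all genes lower at 6 h than at 0 h, and 148 members. It called 31.7% of all genes lower at 6 h than at 1 h, and all 149 members. Both the higher call at 1 h and the lower call at 6 h fell on 5.22% of all genes and on 142 members. Since the rule used the same contrasts, nothing is read from the member counts beyond the number that missed a call.

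Both 1 h libraries lay above both 0 h libraries, and both 6 h libraries below them, in 147 members, against 10.4% of all tested genes, an ordering that the rule also favours. The 2 exceptions were Solyc02g067630.3 and Solyc03g031870.3. Solyc03g031870.3 had 4.26 and 0.923 CPM at 0 h, 19.6 and 20.7 CPM at 1 h, and 0.280 and 1.40 CPM at 6 h, so the second 6 h library lay above the second 0 h library.

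The members with the widest range between the heated times were chosen among those with more than 3 counts in every library. Widest was Solyc02g081550.3 (chromosome 2, 45056913 to 45059617, plus strand, M82 assembly as in the deposited table). It had 12.7 and 10.6 CPM at 0 h, 1353 and 1443 CPM at 1 h, and 2.64 and 7.30 CPM at 6 h. Its 1 h mean was 120 times the 0 h mean and 281 times the 6 h mean, with changes of 6.85 and -1.29. The libraries did not overlap between times, but the 6 h replicates differed, and the change at 6 h was -0.64 without 6 h replicate 1 and -1.95 without 6 h replicate 2. Its 1 h level alone placed it also among the 8 members with the highest mean CPM.

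The next members by this measure had a similar shape with a large early part. Solyc10g076480.2 (chromosome 10, 60131107 to 60134061, plus strand) had 6.76 and 5.18 CPM at 0 h, 187 and 195 CPM at 1 h, and 1.15 and 1.63 CPM at 6 h. Solyc11g011340.2 (chromosome 11, 4392869 to 4395843, plus strand) had 8.68 and 6.18 CPM at 0 h, 244 and 237 CPM at 1 h, and 1.62 and 3.78 CPM at 6 h. Solyc09g011160.4 (chromosome 9, 4565058 to 4570417, plus strand) had 4.38 and 6.94 CPM at 0 h, 206 and 197 CPM at 1 h, and 1.59 and 2.65 CPM at 6 h. All 3 stood more than 30-fold above 0 h at 1 h, by 32.1-fold, 32.4-fold and 35.6-fold in the order given, and their 6 h libraries all lay below their 0 h libraries. Their changes at 6 h were -1.78, -1.38 and -1.23. That of Solyc11g011340.2 was -0.87 without 6 h replicate 1, and that of Solyc09g011160.4 was -0.93 without 0 h replicate 2 and -0.94 without 6 h replicate 1, short of the rule's limit.

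Other members of this group began low and ended under 1 CPM. Solyc01g079170.3 (chromosome 1, 72680668 to 72683181, minus strand) had 4.21 and 3.45 CPM at 0 h, 77.1 and 82.5 CPM at 1 h, and 0.342 and 0.233 CPM at 6 h. The 6 h values stand for 11 and 8 counts, yet the 1 h mean was 278 times the 6 h mean. Solyc06g050440.3 (chromosome 6, 35708168 to 35710443, minus strand) had 2.21 and 0.963 CPM at 0 h, 33.0 and 33.6 CPM at 1 h, and 0.529 and 0.145 CPM at 6 h. The late change of -1.29 rested on 17 and 5 counts and was -0.84 without 0 h replicate 1 and -0.95 without 6 h replicate 2. Solyc02g063355.1 (chromosome 2, 34991360 to 34994398, minus strand) had 4.63 and 2.77 CPM at 0 h, 45.3 and 42.3 CPM at 1 h, and 0.778 and 0.756 CPM at 6 h. In all 3 the replicates at 1 h were nearly equal and the order of times was the same.

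Solyc01g094970.4 (chromosome 1, 80541452 to 80545092, minus strand) differed from these because its 0 h replicates disagreed. It had 15.1 and 1.28 CPM at 0 h (361 and 32 counts), 28.8 and 27.4 CPM at 1 h, and 0.218 and 0.145 CPM at 6 h. The first 0 h library lay nearer to the 1 h libraries and the second nearer to the 6 h libraries. Its change at 1 h, 2.44, was not called, and was 0.88 against the first 0 h library alone and 4.00 against the second. The late change, -2.95, was -4.52 against the first and -1.39 against the second. This gene overlaps a gene on the opposite strand, which the stranded counting keeps apart.

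**Figure D3:**
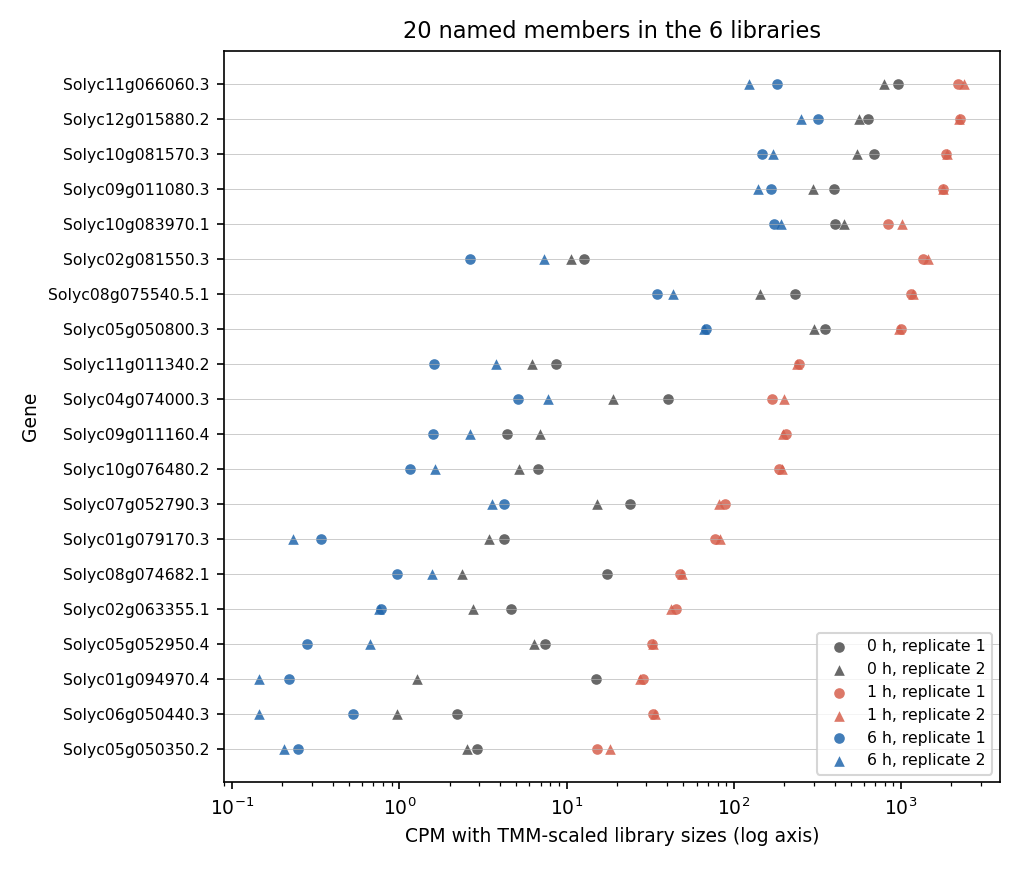
CPM on a log10 axis in the 6 libraries for the 20 members described one by one, with a circle for replicate 1 and a triangle for replicate 2 at 0 h, 1 h and 6 h. The 1 h points are the highest and the 6 h points the lowest in every row, and the 0 h replicates of Solyc01g094970.4 (15.1 and 1.28 CPM) and Solyc08g074682.1 (17.4 and 2.37 CPM) lie far apart.

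A further group was taken for the size of the smaller of its 2 changes, so that both the early and the late part were large. Solyc08g075540.5.1 (chromosome 8, 60541029 to 60543352, minus strand) had 233 and 143 CPM at 0 h, 1148 and 1182 CPM at 1 h, and 34.8 and 43.1 CPM at 6 h. It stood 6.19-fold above 0 h at 1 h and 4.83-fold below it at 6 h, and it was also among the members with the highest mean CPM. Solyc04g074000.3 (chromosome 4, 59782586 to 59786684, minus strand) had 40.3 and 18.9 CPM at 0 h, 169 and 198 CPM at 1 h, and 5.10 and 7.76 CPM at 6 h. Solyc07g052790.3 (chromosome 7, 61713641 to 61717138, plus strand) had 24.0 and 15.1 CPM at 0 h, 88.0 and 81.4 CPM at 1 h, and 4.23 and 3.58 CPM at 6 h. In these 3 genes the first 0 h replicate was the higher one, by clearly more than the replicates at 1 h differed.

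The remaining genes of this group were less abundant. Solyc05g052950.4 (chromosome 5, 65757637 to 65763565, minus strand) had 7.43 and 6.42 CPM at 0 h, 32.4 and 32.8 CPM at 1 h, and 0.280 and 0.669 CPM at 6 h. Its 6 h values are 9 and 23 counts, and it overlaps a gene on the opposite strand. Solyc05g050350.2 (chromosome 5, 63056815 to 63062092, minus strand) had 2.92 and 2.53 CPM at 0 h, 15.3 and 18.1 CPM at 1 h, and 0.249 and 0.204 CPM at 6 h, the last from 8 and 7 counts. These members stood 14.6-fold and 12-fold lower at 6 h than at 0 h by their mean CPM, while the changes on the log2(CPM + 0.5) scale were -2.96 and -2.15. Solyc08g074682.1 (chromosome 8, 59665798 to 59667573, minus strand) had 17.4 and 2.37 CPM at 0 h, 47.8 and 48.7 CPM at 1 h, and 0.964 and 1.57 CPM at 6 h. Its changes of 2.77 and -2.04 were 1.45 and -3.36 against the first 0 h library alone, and the late one was -0.72 against the second alone.

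The members with the highest mean CPM were already abundant at 0 h, apart from Solyc02g081550.3. Solyc11g066060.3 (chromosome 11, 54976279 to 54979241, plus strand) had 953 and 787 CPM at 0 h, 2201 and 2392 CPM at 1 h, and 181 and 124 CPM at 6 h. Solyc12g015880.2 (chromosome 12, 5999955 to 6003026, minus strand) had 632 and 559 CPM at 0 h, 2245 and 2206 CPM at 1 h, and 320 and 251 CPM at 6 h. Solyc10g081570.3 (chromosome 10, 63354156 to 63355439, minus strand) had 684 and 542 CPM at 0 h, 1851 and 1884 CPM at 1 h, and 148 and 172 CPM at 6 h. Their early ratios were 2.64, 3.74 and 3.05, and the 0 h means were 5.72, 2.09 and 3.84 times the 6 h means. In 2 of these genes the late change was the larger in size, with -2.53 against 1.41 at 1 h for Solyc11g066060.3 and -1.93 against 1.62 for Solyc10g081570.3. That of Solyc12g015880.2, -1.07, was -0.98 without 0 h replicate 1 and -0.89 without 6 h replicate 2.

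The other abundant members had the same order of times. Solyc09g011080.3 (chromosome 9, 4469706 to 4472857, minus strand) had 399 and 296 CPM at 0 h, 1785 CPM in both libraries at 1 h, and 167 and 139 CPM at 6 h. Solyc05g050800.3 (chromosome 5, 63590690 to 63595253, minus strand) had 351 and 300 CPM at 0 h, 1000 and 977 CPM at 1 h, and 68.2 and 66.1 CPM at 6 h. Solyc10g083970.1 (chromosome 10, 64461504 to 64462676, minus strand) had 403 and 457 CPM at 0 h, 829 and 1018 CPM at 1 h, and 175 and 192 CPM at 6 h. With a 2.15-fold higher mean at 1 h, Solyc10g083970.1 was near the limit, and its change there was 0.95 without 1 h replicate 2. It was unlike most members in that its second 0 h replicate was the higher. The late change of Solyc09g011080.3, -1.17, was -0.95 without 0 h replicate 1. Per kb of gene span, introns included, the mean level at 1 h was 1454 CPM per kb for Solyc10g081570.3, 787 for Solyc10g083970.1, 775 for Solyc11g066060.3 and 724 for Solyc12g015880.2. It was 566 for Solyc09g011080.3, 517 for Solyc02g081550.3, 501 for Solyc08g075540.5.1 and 217 for Solyc05g050800.3.

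At the low end, 3 members had at most 3 counts in each 6 h library. Solyc08g078650.3 had 0.751 and 0.522 CPM at 0 h, 9.73 and 9.39 CPM at 1 h, and 2 and 1 counts at 6 h. Solyc01g106600.2 had 14.1 and 0.361 CPM at 0 h, 16.6 and 15.2 CPM at 1 h, and 0 counts in both 6 h libraries. Against a limit of 3 counts per library (0.0933 CPM), it was at least 170-fold lower at 6 h than at 1 h. Solyc02g067630.3 had 2.50 and 0 CPM at 0 h, 2.58 and 2.26 CPM at 1 h, and 0 counts in both 6 h libraries, at least 25.9-fold lower at 6 h than at 1 h. In both of these genes, the first 0 h library stood at or near the 1 h level and the second near the 6 h level.

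In the 7 members that missed a call at 1 h or at 6 h, the 0 h replicates always stood apart, with the first higher. Besides the 4 already described (Solyc01g094970.4, Solyc01g106600.2, Solyc02g067630.3 and Solyc03g031870.3), these were Solyc03g025670.3, Solyc06g005820.3 and Solyc07g017880.4. Since members have changes of at least 1 in size, a missed call goes with a wide spread between replicates. In Solyc03g031870.3, the only member not called at 6 h, the 6 h replicates (0.280 and 1.40 CPM) stood apart too. Solyc03g025670.3 had 16.6 and 5.02 CPM at 0 h, 21.4 and 21.7 CPM at 1 h, and 3.92 and 4.57 CPM at 6 h. Solyc06g005820.3 had 3.71 and 0.522 CPM at 0 h, 4.94 and 4.06 CPM at 1 h, and 0.187 and 0.0582 CPM at 6 h. Solyc07g017880.4 had 3.84 and 0.241 CPM at 0 h, 7.92 and 6.83 CPM at 1 h, and 0.0622 and 0.233 CPM at 6 h.

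That difference between the unheated replicates ran through most of the set. The first 0 h library was the higher one in 128 of the 149 members (85.9%), with a median difference of 0.35 (quartiles 0.18 and 0.65, range -1.18 to 4.08), against 49.6% of all tested genes and a median of -0.00. A gap of 1 or more between the 0 h replicates was found in 21 members (14.1%) and in 1.84% of all tested genes. The first replicate was the higher in 20 of these members, the exception being Solyc03g112500.4 (0.376 and 1.49 CPM). The rule averages the 0 h replicates and does not use their difference, but it does use both libraries, so the share is given as a description with no test.

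At the heated times the first replicate was higher in 55 members (36.9%, against 49.0% of all tested genes) at 1 h, and in 64 (43.0%, against 50.6%) at 6 h. Members thus leaned slightly towards the second replicate there, with median differences of -0.04 at 1 h and -0.05 at 6 h. These are smaller than at 0 h, and they were not read under other scalings. At 0 h the median absolute gap between replicates was 0.38 in members and 0.18 in all tested genes. It was 0.09 in members and 0.11 in all tested genes at 1 h, and 0.23 in members and 0.16 in all tested genes at 6 h. No member had a gap of 1 or more at 1 h, where only 4 of the 19123 tested genes did. At 6 h 7 members had such a gap (4.70%, against 0.999% of all tested genes). The lean at 0 h was also read under other scalings. A scaling shifts the replicate difference of all genes by nearly the same amount, so it could hardly undo the lean. The median difference ran from 0.30 (library size alone) to 0.39 (relative log expression) in members. In all tested genes it ran from -0.06 to 0.03 under the same scalings. The first replicate was higher in 128 members by TMM and 132 by relative log expression, the method behind DESeq2's size factors. It was higher in 127 by the upper quartile and 125 by library size alone. The shares of all tested genes moved with the scaling and were 49.6%, 54.8%, 48.4% and 41.8% in that order.

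**Figure D4:**
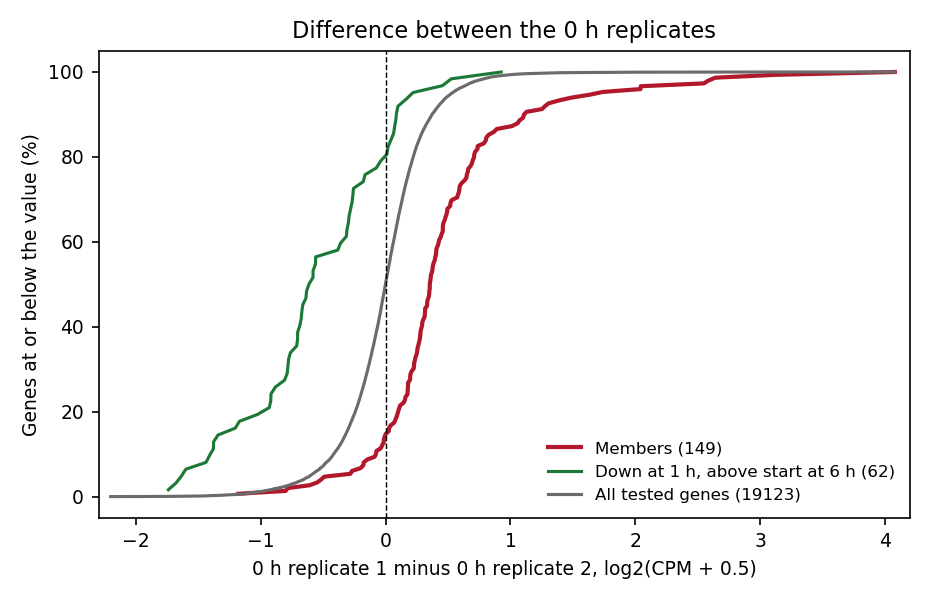
Cumulative share of genes (vertical axis, %) by the difference between the 0 h replicates (horizontal axis, first minus second, in log2(CPM + 0.5)) for the 149 members, the 62 genes at least 1 below 0 h at 1 h and at least 1 above it at 6 h, and all 19123 tested genes. The member curve lies to the right with a median of 0.35, that of the 62 mirrored genes to the left with a median of -0.60, and all tested genes centre on -0.00.

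Of the other courses, 4 had smaller shares of genes higher in the first 0 h replicate than the members, and 1 leaned the other way. Among the 1848 genes at least 1 above 0 h at 1 h and within 1 of it at 6 h, 71.3% were higher in the first 0 h replicate, and among the 842 genes at least 1 above 0 h at both times 52.9% were. The lean was not limited to genes above 0 h at 1 h, since it was found in 73.0% of the 810 genes at least 1 below 0 h at 6 h only and in 62.1% of the 811 genes at least 1 below at both times. Of the 62 genes with the mirrored course, at least 1 below 0 h at 1 h and above it at 6 h, 13 (21.0%) were higher in the first replicate. Members had the highest of these shares and the mirrored genes the lowest.

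The choice of 0 h library therefore moved the members' values. Against the first 0 h library alone, the median changes were 1.47 at 1 h and -1.55 at 6 h, and 116 members met both limits. Against the second alone they were 1.93 and -1.20, and 99 members met both. The 82 members that met both limits against each library alone are those whose inclusion does not turn on averaging the 0 h replicates. In 26 members the first 0 h library lay within 1 of their 1 h mean, and in 15 of these the second was also within 1 of the 6 h mean. What separated the 0 h replicates was not tested.

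The rule was also applied to the levels of 1 replicate number and read in those of the other. The count filter and the TMM scaling had used all 6 libraries, so the other replicate was not fully apart from the choice. Libraries of the same number were grouped by label only, since the numbers were not taken as pairs. The shares below are therefore a description and carry no test. Replicate 1 libraries alone gave 190 genes, of which 165 (86.8%) also lay above 0 h at 1 h and below it at 6 h in replicate 2, against 15.9% of all tested genes. The median changes of the 190 in replicate 2 were 2.38 and -0.85, and 80 of them (42.1%, against 0.690% of all tested genes) met both limits there. Replicate 2 libraries alone gave 132 genes, of which 128 (97.0%, against 18.3%) had both signs in replicate 1, with median changes of 1.34 and -1.58. Hence 80 (60.6%) of the 132 met both limits in replicate 1, against 0.994% of all tested genes. Genes that meet both limits have both signs by definition, so the larger shares for signs are built in. Of the 190 genes 114 were members, and of the 132 genes 101 were. Members were chosen from both replicates, so these shares are no replication of the set. The smaller late change appeared in replicate 2 and the smaller early change in replicate 1, each read against its own 0 h library.

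Relative to other genes, where the members began depends on the scale. Their median level at 0 h was 3.60 in log2(CPM + 0.5), against 4.32 for all tested genes, and per kb of gene span it was 5.23 CPM, against 5.07 for all tested genes, which have longer spans. It was 23.1 against 5.37 CPM per kb at 1 h, and 1.57 against 5.33 CPM per kb at 6 h. Genes that were up at 1 h and back within 1 of the start at 6 h had medians of 3.81, 14.3 and 4.38 CPM per kb at 0, 1 and 6 h, and genes up at both times had 1.79, 10.5 and 7.69. The 810 genes that were lower only at 6 h had a median of 18.3 CPM per kb at 0 h, 15.0 at 1 h and 6.52 at 6 h.

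At least 50 counts in all 6 libraries were found in 96 members. All 149 had at least 50 counts in both 1 h libraries, 11 were under 50 in both 0 h libraries and 44 in both 6 h libraries. Members low at 6 h or 0 h entered the tested genes through the libraries in which they were high.

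Members spanned 237 to 18287 bp, with a median of 2637 bp and quartiles of 1443 and 4291 bp, against 3709 bp and quartiles of 1894 and 6113 bp for all tested genes. A span under 1 kb was found in 19 members (12.8%) and in 11.6% of all tested genes. On the plus strand lay 62 members (41.6%), against 50.3% of all tested genes. Another gene overlapped 9 members (6.04%, against 4.91%), always on the opposite strand. None of the 104 tested genes whose identifiers begin with TomatoPan was a member.

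The members were spread over all 12 chromosomes. Chromosome 8 held 23 of its 1412 tested genes (1.63%), chromosome 5 held 15 of 1284 (1.17%) and chromosome 10 held 13 of 1262 (1.03%). The lowest share was on chromosome 12, with 5 of 1250 (0.400%), and the other chromosomes held between 0.540% and 0.773%. Within 5 genes of each other lay 6 pairs of members, and 2 of these pairs were direct neighbours in the table. Whether random placement would give more or fewer pairs was not tested.

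Both neighbouring pairs lay on the minus strand. Solyc08g016210.3 (chromosome 8, 7003254 to 7006904) had 19.4 and 9.35 CPM at 0 h, 40.8 and 43.7 CPM at 1 h, and 1.15 and 1.40 CPM at 6 h. At -2.98, its late change was the lowest among the members. At a distance of 717 bp, Solyc08g016220.1 (7007622 to 7007951) had 1.96 and 0.642 CPM at 0 h, 2.99 and 3.77 CPM at 1 h, and 0.280 and 0.145 CPM at 6 h. This second gene spans 330 bp and lies upstream of the first in the direction of transcription.

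The other pair is separated by 124 bp. Solyc10g076540.1 (chromosome 10, 60177964 to 60178200) had 11.6 and 7.51 CPM at 0 h, 25.7 and 23.8 CPM at 1 h, and 2.83 and 2.91 CPM at 6 h. Solyc10g076550.1 (60178325 to 60179557) had 17.5 and 9.91 CPM at 0 h, 30.04 and 36.4 CPM at 1 h, and 3.48 and 4.77 CPM at 6 h. Their changes were 1.36 and -1.54 for the first gene and 1.29 and -1.58 for the second. In counts per gene, reads of separate transcripts and of a transcript covering both neighbours cannot be told apart.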

How the data were processed

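Total RNA of the fourth leaf of M82 plants was sequenced at 0, 1 and 6 h of HS, with 2 biological replicates at each time. The authors deposited raw counts per gene (featureCounts 2.0.0, M82 v1.1.0 models, reverse-stranded, mapping quality of at least 30, multi-mapping and overlapping reads counted, PCR duplicates removed). The study's methods name STAR and the submitters' processing notes name Bowtie2 2.3.5, and the labels give single reads while the table was counted with the option for pairs. Multi-mapping reads leave near-identical copies uncertain.

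Genes that reached 50 counts in 2 or more libraries were scaled by TMM and tested in edgeR 4.0.16 (R 4.3.3) with the quasi-likelihood test over all 6 libraries, with Benjamini-Hochberg adjustment at 0.05. That step was tried on simulated counts drawn independently for each library. They held no shared difference between the 0 h replicates, so the trial does not cover that feature of the data. The members and lists were chosen with earlier results of these data known. Named genes were the 8 members with the widest range between 1 h and 6 h (more than 3 counts in every library), the 8 with the largest smaller change and the 8 with the highest mean CPM, 20 in all; others were named at the limits, at missed calls and as neighbours. Planned gene lists, promoter motifs and leaf markers were not used here, since 0 of 35603 identifiers matched the reference table (SLM_r2.1). Other scalings, filters, pseudocounts, DESeq2 1.42.0, a replicate block and leaving out each library were tried.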

Additional observations from a re-analysis of the deposited data

How the results depend on the processing

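The number of genes meeting the rule depended on scaling and pseudocount. It was 149 as reported, 89 by library size alone and 90 with a pseudocount of 2, and between 111 and 215 under the other alternatives. Leaving out 1 library in turn gave between 120 (without 0 h replicate 1, 99 of them members) and 169 (without 0 h replicate 2, 116 of them members). Under all 4 scalings 89 members were kept, and 73 were kept whichever library was left out. Scaling by library size moved the median change of all tested genes to -0.14 at 1 h and 0.29 at 6 h, against 0.00 and 0.03 by TMM, and the members' medians to 1.53 and -1.17. It also gave 3379 genes called lower at 6 h than at 0 h (5350 by TMM) and 3552 lower at 6 h than at 1 h (6055 by TMM). Leaving out 1 library gave 4879 to 6136 genes higher at 1 h, 4162 to 5525 lower at 6 h, 4837 to 6527 lower at 6 h than at 1 h, and 136 to 143 members called at both times. With the replicate number as a block these counts were 6157, 5280, 6070 and 146. Deviations of same-numbered libraries from their group means correlated at -0.0956 (0 h with 1 h), -0.0222 (0 h with 6 h) and 0.199 (1 h with 6 h), so the numbers were not taken as pairs. For the 20 genes described one by one, none of the scalings, pseudocounts, low-count filters, left-out libraries, DESeq2, the block or edgeR's fitted values reversed a change. By the rule these genes have changes of at least 1 in size, which left little room for a reversal. Of 640 values, 573 moved by no more than the replicate spread and 67 by more. A left-out library can by construction move a value by no more than that spread, or not at all. Those values were therefore bound to be among the 573, and the tally does not measure robustness to left-out libraries. The early change of Solyc01g094970.4, for example, counts there although it went from 2.44 to 0.88 without 0 h replicate 2. Upper-quartile scaling, the pseudocounts and the filters were added for the 20 genes after seeing the data. With a pseudocount of 2 the change at 6 h of Solyc06g050440.3 was -0.60. edgeR's fitted log2 fold changes at 6 h, added after seeing the data, were larger in size for genes with few counts at 6 h (-3.72 for Solyc01g079170.3, -3.57 for Solyc05g050350.2 and -5.46 for Solyc01g094970.4). With 2 libraries a time, single members with 0 h replicates apart are weakly resolved.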

Other observations

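The direction in which the 0 h replicates differed was not limited to the members. Of the 125 tested genes at least 1 higher in the first 0 h library than in the second, 107 (85.6%) were higher at 1 h than at 6 h, and 20 (16.0%) were members. Of the 227 genes at least 1 lower in the first 0 h library, 215 (94.7%) were lower at 1 h than at 6 h, and 1 was a member. Among all tested genes 47.4% were higher at 1 h than at 6 h. Across the 19123 genes, which are not independent replicates, the difference between the 0 h replicates and the difference between 1 h and 6 h had a Pearson's r of 0.388 and a Spearman's rho of 0.353. These differences share no library, although all come from 1 counting and scaling run.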
